A study of Mus musculus with 4 samples.

Results

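Beta cells with high metallothionein RNA were examined in 2 single-cell libraries of mouse pancreatic islets, both exposed to TCDD, a dioxin and strong ligand of the aryl hydrocarbon receptor. Beta cells, the insulin-secreting cells of the islet, were taken as barcodes of at least 12000 UMIs (unique molecular identifiers, each standing for 1 captured RNA molecule) of which Ins1 and Ins2 made up at least 20% and Gcg, Sst and Ppy together less than 1%. That rule found 2674 beta barcodes among 3464 barcodes of at least 12000 UMIs. The 2674 were pooled and ranked by the summed CPM (UMIs of a gene per 1000000 UMIs) of Mt1 and Mt2, and the 401 in the top 15% are the members described here. The members were thus chosen by their measured Mt1 and Mt2 levels, which are given below as a description. In the wild-type library 283 members were compared with 615 other beta barcodes, and in the Malat1-/- library 118 members with 1658.

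The wild-type islets came from C57BL/6 mice and the Malat1-/- islets from mice of the same strain that lack the long noncoding RNA Malat1 (Malat1-null in the figures). Islets of both genotypes were freed with collagenase, cultured in RPMI medium with serum, dissociated with Accutase and loaded on a droplet system that reads transcript 3′ ends. All barcodes described here therefore share the culture and the TCDD exposure; its dose and duration, the ages of the mice and how many mice were pooled are not given in the sources used here. The 2 vehicle (DMSO) libraries of the 4 in the series were not analysed here. There was 1 library per genotype and barcodes of 1 library are not replicates, so no test was made. The 95% intervals cover counting error only, and genotype cannot be told apart from library.

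Metallothioneins are small cysteine-rich proteins that bind zinc and copper, buffer the free metal and react with oxidants. Their genes are switched on by the zinc-sensing factor MTF1 at metal response elements, and also by glucocorticoids and cell stress. Beta cells carry an unusually large zinc load because insulin is stored as zinc-bound crystals in the secretory granules, which the transporter ZnT8 (Slc30a8) fills. In the mouse, Mt1 and Mt2 are expressed in most tissues, Mt3 mainly in brain and Mt4 in stratified epithelia.

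The 2 marker genes are neighbours on mouse chromosome 8. In GENCODE M21, on build GRCm38, Mt2 spans 94172664 to 94173568 and Mt1 spans 94179082 to 94180327, both on the plus strand and 5513 bases apart. The windows from 250 bases before to 50 bases after the start annotated by RefSeq (GRCm38.p6) are shown for 4 genes: the 2 that chose the cells, the zinc exporter gene Slc30a1, which is also an MTF1 target, and the small heat-shock protein gene Hspb1, which ranked highest in both libraries by the smaller of its 2 ratios. All are on the plus strand, at chr8:94178839-94179138 for Mt1, chr8:94172368-94172667 for Mt2, chr1:191906531-191906830 for Slc30a1 and chr5:135887669-135887968 for Hspb1. Capitals mark matches on either strand to the core of the metal response element (TGCACNC or TGCGCNC) in the first 3 windows and to a heat-shock element (GAANNTTC) in the Hspb1 window.
Mt1: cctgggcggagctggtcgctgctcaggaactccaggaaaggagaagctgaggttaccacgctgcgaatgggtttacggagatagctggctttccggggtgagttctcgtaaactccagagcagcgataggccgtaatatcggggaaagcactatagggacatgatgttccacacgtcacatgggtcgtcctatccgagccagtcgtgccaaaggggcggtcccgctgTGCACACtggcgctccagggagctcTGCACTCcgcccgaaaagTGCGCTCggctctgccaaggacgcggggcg
Mt2: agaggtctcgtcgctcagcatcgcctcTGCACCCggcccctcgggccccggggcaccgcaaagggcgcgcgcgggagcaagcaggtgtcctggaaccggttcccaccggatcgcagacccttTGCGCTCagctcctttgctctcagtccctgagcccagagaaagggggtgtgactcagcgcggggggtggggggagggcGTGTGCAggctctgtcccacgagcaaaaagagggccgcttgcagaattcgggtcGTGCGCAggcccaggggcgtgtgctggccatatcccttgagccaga
Slc30a1: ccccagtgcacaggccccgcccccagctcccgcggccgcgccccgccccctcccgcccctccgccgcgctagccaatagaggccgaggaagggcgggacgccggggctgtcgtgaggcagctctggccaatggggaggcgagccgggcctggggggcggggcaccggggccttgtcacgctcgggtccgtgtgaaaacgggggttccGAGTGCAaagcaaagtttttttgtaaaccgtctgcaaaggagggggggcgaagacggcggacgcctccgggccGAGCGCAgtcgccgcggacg
Hspb1: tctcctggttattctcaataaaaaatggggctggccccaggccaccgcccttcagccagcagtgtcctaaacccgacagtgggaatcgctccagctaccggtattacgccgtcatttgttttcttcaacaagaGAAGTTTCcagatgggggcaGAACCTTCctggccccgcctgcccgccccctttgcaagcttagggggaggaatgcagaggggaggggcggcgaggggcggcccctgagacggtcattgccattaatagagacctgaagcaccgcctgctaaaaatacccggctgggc

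The Mt2 window held 4 matches to the metal response element core, the Mt1 window 3, the Slc30a1 window 2 and the Hspb1 window 0. The letters are short and common, since 25.7% of 32851 RefSeq windows of 300 bases held at least 1 match, while 4 or more were found in 0.517%. The Mt1 and Mt2 counts depend on the start used. GENCODE M21 also lists Mt1 transcripts that start 122 and 152 bases after the RefSeq start, past the end of the window. Its Mt2 transcripts start 46 and 242 bases after the RefSeq start, the second also past the window. Part of the sequence just before the starts past the windows was thus not searched. The Hspb1 window held 2 matches to GAANNTTC, which 7.86% of windows held at least 1 time. The core of the dioxin response element, GCGTG, occurred 2 times in the Mt2 window and 1 time each in those of Mt1 and Slc30a1, against 32.4% of windows with at least 1. The core of the antioxidant response element, TGACNNNGC, occurred 1 time each in the Mt2 and Slc30a1 windows, against 12.4% of windows. The letters TGCACGC would match the metal and the dioxin core at once, but no match in these windows reads so. These matches describe the letters only.

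Members made up 31.5% of beta barcodes in the wild-type library (exact 95% interval 28.5% to 34.7%) and 6.64% in the Malat1-/- library (5.53% to 7.90%). Ranking by Mt1 alone or Mt2 alone, thinning each barcode to 12000 UMIs, raising the UMI minimum to 25000 and leaving insulin and amylin out of the CPM gave 30.6% to 31.6% and 6.59% to 7.09%. All of these rank barcodes by the same metallothionein counts at a pooled top 15%, so like shares follow in part from the rule. Summed Mt1 and Mt2 had a median of 15110 CPM in the wild-type members, with a range of 7001 to 73526 CPM, against a median of 2070 CPM in the other wild-type beta barcodes. In the Malat1-/- library the members had a median of 11123 CPM (7062 to 50268) and the others 1157 CPM. The distribution had no gap at the threshold: the lowest 3 members stood at 7055, 7028 and 7001 CPM, and the highest 3 of the others at 6982, 6975 and 6949 CPM. The members are the upper end of a continuous range. Mt2 supplied a median of 17.1% and 18.0% of the summed metallothionein CPM in the members of the 2 libraries, against 14.9% and 14.3% in the others.

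**Figure D1:**
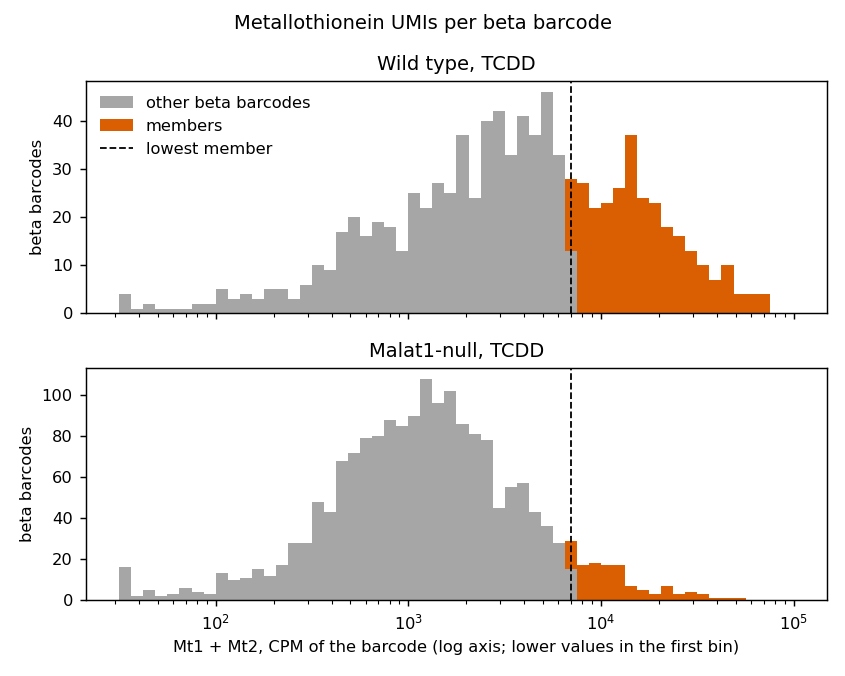
Number of beta barcodes (vertical axis) by summed Mt1 and Mt2 CPM (horizontal axis, log scale), with members stacked on the other beta barcodes in the wild-type and the Malat1-/- library. Members make up 31.5% of the wild-type and 6.64% of the Malat1-/- beta barcodes, the first bin also holds lower values, and counts run without a gap across the threshold at 7001 CPM.

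The rule used insulin, so the label was checked on the 7 beta markers other than Ins1, Ins2 and Iapp, the gene of amylin: Mafa, Pdx1, Nkx6-1, Slc2a2, G6pc2, Ucn3 and Slc30a8. The median member carried UMIs of all 7 in each library. Their summed level was 844 CPM in wild-type members and 862 CPM in the other beta barcodes, and 965 and 1127 CPM in Malat1-/-. Barcodes of at least 12000 UMIs outside the rule, which still hold some beta cells, had 118 and 609 CPM. Insulin, which the rule limits from below, made up a median of 48.6% of UMIs in wild-type members against 51.7% in the others, and 53.6% against 58.9% in Malat1-/-. Median UMI totals were close, at 60613 and 63416 in wild type and 47184.5 and 49307 in Malat1-/-. After thinning to 12000 UMIs, members had a median of 2568 genes against 2451 in wild type, and 2505 against 2294 in Malat1-/-. Mitochondrial UMIs were a median of 1.05% against 1.24%, and 1.18% against 1.17%. Members were thus of like depth to the other beta barcodes, with a slightly smaller insulin share.

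The libraries held 81872519 and 134950186 UMIs. They shared 1 barcode of at least 1000 UMIs and no beta barcode. Malat1 was at 11194 CPM in wild-type members and 8448 CPM in the other wild-type beta barcodes, and at 0.321 and 0.400 CPM in Malat1-/-, as the labels say. Droplet background, read from barcodes under 100 UMIs, held Mt1 and Mt2 at 7100 CPM (wild type) and 3580 CPM (Malat1-/-), and acinar marker RNA at 74141 and 3450 CPM. Barcodes of at least 12000 UMIs outside the beta rule had median metallothionein levels of 1373 and 1716 CPM. No doublet caller was used, and the hormone limits of the rule did not remove every mixed barcode: those with acinar or PP-cell RNA are treated below.

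Genes other than Mt1 and Mt2 were compared on UMIs summed over members and over other beta barcodes of the same library. A gene was called higher or lower when its ratio was beyond 1.5-fold and the 95% interval of the ratio beyond 1.2-fold, among genes with at least 20 CPM in either sum and at least 50 UMIs over both. In wild type 90 of 4143 measured genes were higher in members (2.17%) and 93 lower (2.24%). In Malat1-/- 86 of 4210 were higher (2.04%) and 210 lower (4.99%). In both libraries 37 of 3958 were higher (0.935%) and 59 lower (1.49%), and 1 gene, Pyy, went in opposite directions (0.0253%). The log2 ratios of the 2 libraries had the same sign for 77.01% of the 3958 genes, with a Pearson correlation of 0.73 across genes, which are not independent replicates. Of all measured genes 51.6% were above 0 in wild type and 43.9% in Malat1-/-. Values were scaled by trimmed means, under which the median gene stood at 0.01 and -0.04 on the log2 scale. Scaling by total UMIs instead moved that median to 0.11 and 0.21, and the split of higher to lower genes to 179 and 51 in wild type and 366 and 57 in Malat1-/-. Total-UMI scaling thus moved the ratios upward in both libraries. A log2 ratio below 0 by less than this shift has no fixed sign, and the size of a small ratio above 0 is not fixed either. Over 13 alternatives in scaling, weighting and choice of barcodes, Hspb1, Ddit3, Cnih4, Clu, Fnip2 and Pdcd2 kept their call in both libraries under every one, as did Ptprn, Prlr, Atp2a3, Ddc, Enpp2 and 2410021H03Rik among the lower genes. The others of 35 higher and 28 lower genes followed lost it under at least 1, most often when the members were the top 25% or the top 15% within each library.

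**Figure D2:**
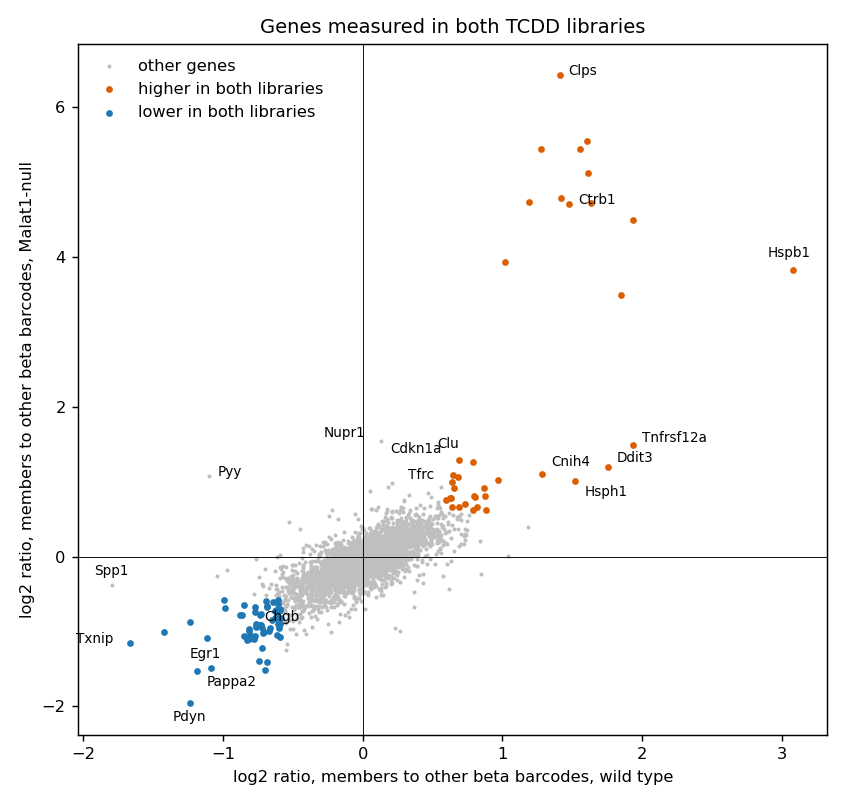
Log2 ratio of members to other beta barcodes in the wild-type library (horizontal axis) and the Malat1-/- library (vertical axis), 1 point per gene measured in both. Most points cluster near 0, the 37 genes higher and 59 lower in both libraries lie in the upper right and lower left, and Pyy alone is called in opposite directions.

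Hspb1, which encodes a small chaperone that holds unfolding proteins and steadies actin filaments, ranked first of the genes higher in both libraries by the smaller of its 2 ratios; in Malat1-/- alone, acinar genes described below had larger ratios. Its summed level was 161 CPM in wild-type members and 19.01 CPM in the other beta barcodes, and 252 and 17.7 CPM in Malat1-/-. The ratios were 8.47 (7.83 to 9.18) and 14.2 (13.2 to 15.3). Hspb1 RNA was not spread evenly: at least 1 UMI was seen in 47.0% of wild-type members against 22.8% of the others, and in 38.1% against 16.0% in Malat1-/-. Thinned to equal depth, the shares were 31.1% against 6.02%, and 30.5% against 5.43%. The median barcode had 0 in all 4 groups, while the highest members reached 4876 and 5169 CPM. The single highest barcode held 7.10% of the members' Hspb1 UMIs in wild type and 21.02% in Malat1-/-. Hspb1 in the droplet background was at 143 CPM in wild type, near the wild-type members' level, and at 39.1 CPM in Malat1-/-; its part in the result was not tested. The Hspb1 gene lies on chromosome 5, 135887919 to 135889563 in GENCODE M21.

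The rest of the cytosolic chaperones followed less evenly. Of 17 measured heat-shock genes 9 were higher in wild-type members and none lower, with a median log2 ratio of 0.60. In Malat1-/- 3 of 14 were higher and 1 lower, with a median of 0.25. Of all measured genes 2.17% were called higher and 2.24% lower in wild type, and 2.04% and 4.99% in Malat1-/-. These shares also stand beside the counts of the lists below. Hsph1, a nucleotide exchange factor for HSP70, was at 126 against 43.9 CPM in wild type (2.87-fold) and 80.2 against 40.0 CPM in Malat1-/- (2.01-fold). Hsp90aa1, the inducible HSP90, was at 719 against 434 CPM (1.66-fold) and 677 against 416 CPM (1.63-fold). The inducible HSP70 genes Hspa1a and Hspa1b, near-identical paralogs whose reads cannot be assigned with confidence, were higher in wild-type members at 6.89- and 5.46-fold. In Malat1-/- they were scarce in both groups, at 2.41 against 8.47 CPM and 2.57 against 7.35 CPM, and the sign of their log2 ratios changed between alternatives. Hspa8, the constitutive HSP70, was at 455 against 459 CPM in the wild-type library and lower in Malat1-/- members, at 307 against 463 CPM.

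A heat-shock state was scored in each library as the top 15% of beta barcodes by summed Hspa1a, Hspa1b and Dnajb1. Without these barcodes, an alternative chosen after seeing the data, the list's median log2 ratio was 0.16 in both libraries, and Dnaja1 and Dnajb1 were at -0.17 and -0.42 in wild-type members. The barcodes were removed for their heat-shock RNA, so smaller values of these genes follow from the removal. Hspb1, which is not in the score, stayed higher, with a lowest log2 ratio of 2.84 over 13 alternatives in wild type and 2.87 in Malat1-/-. Hsph1 kept a higher value under each of its 13 alternatives, down to 0.86 in wild type and 0.37 in Malat1-/-. The share of barcodes in that heat-shock state was 22.6% of wild-type members against 11.5% of the others, and 16.9% against 14.8% in Malat1-/-.

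Ddit3, which encodes the stress transcription factor CHOP, a late arm of the unfolded protein response and of amino acid stress, was more than 2-fold higher in both libraries. It was at 198 CPM in wild-type members against 58.6 CPM in the others, a ratio of 3.38 (3.21 to 3.55). In Malat1-/- it was at 285 against 125 CPM, a ratio of 2.28 (2.17 to 2.40). Unlike Hspb1, it was present in most barcodes: the medians were 125 against 39.1 CPM in the wild-type library and 213 against 92.1 CPM in Malat1-/-. At least 1 Ddit3 UMI was found in 93.3% of wild-type members and 98.3% of Malat1-/- members. Ddit3 lies on chromosome 10, 127290774 to 127296288.

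The wider endoplasmic reticulum stress list differed between libraries in how many of its genes were called. The pooled cut took 31.5% of wild-type and 6.64% of Malat1-/- beta barcodes, so the members are unlike parts of their libraries. Of all measured genes 2.17% and 2.04% were called higher. In wild type 2 of 27 measured genes were higher, Ddit3 and Trib3, with a median log2 ratio of 0.08 that ranged down to -0.0142 over the alternatives. In Malat1-/- 7 of 26 were higher and none lower, with a median of 0.24: the chaperones Hspa5, Pdia6, Calr, Sdf2l1 and Creld2 joined Ddit3 and Trib3. Hspa5 (BiP), the main chaperone of that compartment, was at 653 against 491 CPM in wild type (1.33-fold) and 1152 against 715 CPM in Malat1-/- (1.61-fold). Its log2 ratio ranged over the alternatives from 0.18 to 0.70 in wild type, highest with the top 15% within each library. In Malat1-/- it ranged from 0.50 to 0.94. Trib3, a CHOP target that binds the kinase AKT, was 1.57-fold and 1.88-fold higher. Atf4, which acts upstream of Ddit3, was at 159 against 152 CPM and 245 against 243 CPM. The difference between the libraries was not tested.

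Of the p53 and apoptosis genes, 2 of 9 were higher in wild-type members and 4 of 10 in Malat1-/-, with none lower and median log2 ratios of 0.15 and 0.40. Among all measured genes the higher shares were 2.17% and 2.04%. Cdkn1a, the cell-cycle inhibitor p21, was at 119 against 73.6 CPM in wild type (1.61-fold) and 197 against 80.5 CPM in Malat1-/- (2.44-fold). Gadd45b, a stress-signalling gene, was 2.27-fold higher in wild type and at 1.31-fold in Malat1-/-. Trp53inp1, Ccng1 and Aen were called in Malat1-/-, at 1.55-, 1.90- and 1.65-fold, and stood at 1.04-, 1.13- and 1.45-fold in wild type. Nupr1, a small chromatin protein of the stress response, was at 1631 against 557 CPM in Malat1-/- members, 2.93-fold higher, and at 700 against 638 CPM in wild type. Nupr1 RNA was also plentiful in the wild-type droplet background, at 3886 CPM.

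Several further genes were higher in both libraries. Tnfrsf12a, the receptor for the cytokine TWEAK, was at 49.1 against 12.9 CPM in wild type (3.82-fold) and 24.7 against 8.84 CPM in Malat1-/- (2.79-fold). Cnih4, a cargo receptor for export from the endoplasmic reticulum, was at 32.8 against 13.4 CPM (2.44-fold) and 26.6 against 12.4 CPM (2.15-fold). Tfrc, the transferrin receptor that brings in iron, was at 46.6 against 29.8 CPM (1.56-fold) and 70.1 against 33.1 CPM (2.12-fold). Clu, a secreted chaperone, was at 201 against 116 CPM (1.73-fold) and 236 against 98.3 CPM (2.40-fold), and 1 barcode held 22.7% of the Malat1-/- members' Clu UMIs. Krt8, an epithelial keratin, was 1.55-fold and 1.72-fold higher, a call that 6 of the 13 alternatives ended in at least 1 library.

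**Figure D3:**
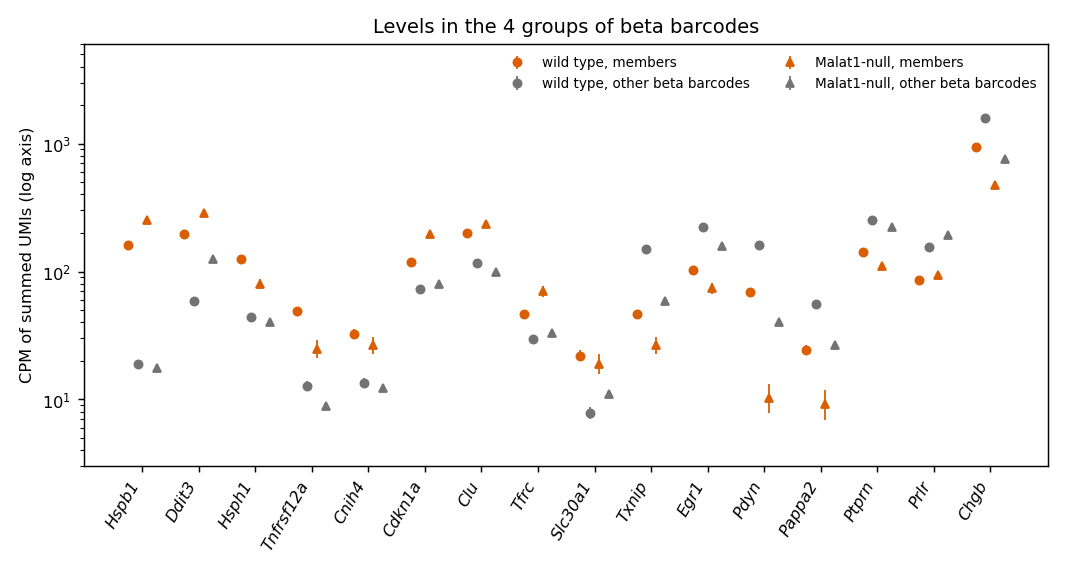
Summed CPM (log axis) of selected genes in members and other beta barcodes of each library, with bars for exact 95% counting intervals where they exceed the marker. Hspb1, Ddit3, Tnfrsf12a and Hsph1 are higher in the members of both libraries, and Txnip, Pdyn, Ptprn and Egr1 are lower.

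Digestive enzyme genes of acinar cells, the exocrine cells around the islet, took 11 of the 15 highest places by ratio. Try5, Prss2, Cela1, Sycn, Cela3b, Cpa1, Ctrb1, Try4, Clps, Pnlip and 2210010C04Rik stood 2.29- to 3.82-fold higher in wild-type members and 11.3- to 86.4-fold higher in Malat1-/- members. They rested on few barcodes. A single barcode held 97.5% of the Ctrb1 UMIs of the Malat1-/- members, and another 51.3% of those of the wild-type members. The Clps shares were 99.4% and 48.8%. Summed acinar marker CPM was 613 in wild-type members against 199 in the others and 961 against 29.0 in Malat1-/-, while the median barcode had 79.0 against 64.9 CPM and 0 in both Malat1-/- groups. Try4, Try5 and Prss2 are trypsinogen paralogs whose reads are uncertain between copies.

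Pyy, a gut and islet peptide gene, behaved in the same way. It was at 58.4 against 125 CPM in wild type (0.466-fold) and 631 against 299 CPM in Malat1-/- (2.11-fold), with 97.5% of the Malat1-/- members' UMIs in 1 barcode. When barcodes above 5000 CPM of acinar or of PP-cell markers were removed, an alternative added after seeing the data, 279 and 608 wild-type and 116 and 1635 Malat1-/- barcodes were left. Pyy was then lower in the members of both libraries, at 9.06 against 26.5 CPM (0.342-fold) and 16.5 against 45.0 CPM (0.367-fold). Higher genes in both libraries numbered 25, of which 23 were among the 37, and lower genes 59, of which 57 were among the 59 called with all barcodes.

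The 25 higher genes left without those barcodes were chosen after their values were seen. Hspb1, Tnfrsf12a, Ddit3, Cnih4 and Hsph1 led them, with Hspb1 at 8.46- and 17.1-fold. They also held Fnip2, a partner of the energy sensor AMPK (1.84- and 1.91-fold), Lamtor3 and Rragd, parts of the lysosomal platform that recruits mTORC1, Cacybp, a partner of the HSP90 system, and Cfl2, which severs actin filaments. Dnajb2 and Hspe1, co-chaperones of the cytosol and the mitochondrion, and Chd2, a chromatin remodeller, were among the rest. Cdkn1a, Tfrc, Trib3, Clu and Hsp90aa1 remained in the list, Clu at 1.61- and 1.93-fold.

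Zinc and other metal genes were looked at next, since metallothionein transcription answers to free zinc. Of 23 genes on the zinc list, 8 passed the level minimum in wild type and 6 in Malat1-/-. Slc30a1, which exports zinc across the plasma membrane, was the 1 gene called higher in wild type: 22.0 CPM in members against 7.86 CPM in the others, a ratio of 2.80 (2.42 to 3.25). In Malat1-/- it was at 19.1 against 11.1 CPM, a ratio of 1.72 (1.41 to 2.08), below the 20 CPM minimum. Its log2 ratio ranged over 13 alternatives from 1.21 to 1.67 in wild type and from 0.49 to 1.04 in Malat1-/-. At least 1 Slc30a1 UMI was found in 66.1% of wild-type members and 38.9% of the others.

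No other zinc gene that passed the minimum was called higher. Slc39a10, also on the zinc list but below the level minimum, was lower in members of both libraries. It was at 2.17 against 5.44 CPM in wild type (0.399-fold, 0.280 to 0.557). In Malat1-/- it was at 3.85 against 7.95 CPM (0.484-fold, 0.308 to 0.727). Mtf1, the zinc sensor itself, was at 1.05-fold in wild type and 0.886-fold in Malat1-/-. Slc30a8, the granule zinc transporter, was lower in Malat1-/- members at 108 against 218 CPM (0.498-fold) and was at 115 against 135 CPM in wild type (0.854-fold). Mt3, below the level minimum, was at 9.58 against 18.8 CPM (0.510-fold) and 6.57 against 10.1 CPM (0.648-fold), opposite in direction to the 2 genes that chose the cells. Mt4 had no UMI in any group; a count of 0 allows up to 0.155 CPM in wild-type members and 0.481 CPM in Malat1-/- members. List medians were -0.03 and -0.05.

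Of the copper and iron genes, Tfrc was the 1 called higher in each library, of 8 and 7 measured, and the iron exporter gene Slc40a1 was lower in wild type, at 18.3 against 32.6 CPM (0.561-fold). Ftl1, the ferritin light chain that stores iron, was at 1906 against 1692 CPM (1.13-fold) and 2644 against 1862 CPM (1.42-fold).

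The targets of Nrf2, the oxidant-activated transcription factor, leaned in different directions. In wild type 15 of 20 measured targets were below 0, with a median log2 ratio of -0.16, and 1 was called lower, Pgd of the pentose phosphate pathway (0.663-fold). In Malat1-/- 17 of 20 were above 0, with a median of 0.18, and 2 were called higher, the autophagy receptor gene Sqstm1 (1.58-fold) and Osgin1 (1.53-fold). Srxn1, sulfiredoxin, was at 0.731-fold and 1.29-fold. Hmox1, which breaks down haem, was at 1.33-fold and 1.35-fold. Its log2 ratio ranged over 13 alternatives from -0.09 to 1.14 in wild type and from 0.15 to 0.68 in Malat1-/-. The wild-type maximum and the Malat1-/- minimum both came with the top 15% within each library. The difference between libraries was not tested. Among 18 antioxidant enzyme genes Gpx1, glutathione peroxidase, was higher in wild type (157 against 103 CPM, 1.52-fold), and Txnip was lower in both, with list medians of -0.06 and 0.10.

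Targets of the glucocorticoid receptor and of the aryl hydrocarbon receptor were not called higher. Of the glucocorticoid targets, Per1, a clock gene, was lower in Malat1-/- (0.534-fold). The list's median was -0.24 over 9 genes in wild type and -0.22 over 8 in Malat1-/-, where scaling by total UMIs gave 0.04. Few aryl hydrocarbon receptor targets passed the minimum, 2 and 3, and none was called. Cyp1a1, the classical dioxin-induced gene, had 2 UMIs in wild-type members against 123 in the others, a ratio of 0.0342 (0.0041 to 0.126), and 0 against 55 in Malat1-/-, all below the minimum.

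Txnip had the lowest wild-type ratio of the genes lower in both libraries. It encodes a glucose-induced protein that binds thioredoxin and limits glucose uptake. Txnip was at 46.9 CPM in wild-type members against 149 CPM in the others (0.315-fold, 0.294 to 0.338), and at 26.6 against 59.3 CPM in Malat1-/- (0.449-fold, 0.382 to 0.524). The wild-type medians were 22.7 against 74.0 CPM. Txnip lies on chromosome 3, 96557957 to 96561883.

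Pdyn, which encodes the opioid precursor prodynorphin, was at 69.0 against 162 CPM (0.425-fold) and 10.3 against 40.3 CPM (0.255-fold). Pappa2, a protease of insulin-like growth factor binding proteins, was at 0.439- and 0.342-fold. Etv1, an ETS transcription factor, was at 0.471- and 0.353-fold. Enpp2, the lysophosphatidic acid enzyme autotaxin, was at 0.372- and 0.498-fold. Prlr, the prolactin receptor that drives beta-cell growth in pregnancy, was at 0.553- and 0.480-fold. Spp1, osteopontin, was at 227 against 786 CPM in wild type (0.289-fold) but 65.6 against 85.7 CPM in Malat1-/- (0.765-fold), where its log2 ratio ranged from -0.69 to 1.01 over the alternatives. 2410021H03Rik and Mir22hg were among the 59 as well; reads of overlapping or antisense transcripts may be shared with their neighbours.

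Some activity-induced genes were lower too. In each library 3 of 10 measured immediate early genes were lower and none higher, with medians of -0.54 and -0.29, the second of which was -0.03 under total-UMI scaling. Among all measured genes 2.24% and 4.99% were called lower. Egr1, an immediate early transcription factor, was at 103 against 222 CPM (0.463-fold) and 73.8 against 157 CPM (0.469-fold), and Fos was at 0.502- and 0.666-fold. The median barcode had 30.2 CPM of Egr1 in wild-type members against 155 CPM in the others, and 0 against 81.2 CPM in Malat1-/-. The shares of barcodes in the Fos-high state were 10.2% against 17.2%, and 13.6% against 15.1%.

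Of the genes of insulin granules and their release, 3 of 28 measured were called lower in wild type and none higher. In Malat1-/- 5 of 26 were called lower and none higher. The lower shares of all measured genes were 2.24% and 4.99%. Below 0 were 26 of the 28, with a median log2 ratio of -0.24, and all 26 in Malat1-/-, with a median of -0.37, against 48.4% and 56.1% of all measured genes. Under total-UMI scaling the medians were -0.13 and -0.12. Chgb (secretogranin 1 of the granule core) was at 936 against 1596 CPM (0.587-fold) and 473 against 753 CPM (0.629-fold). Ptprn (IA-2, a granule membrane protein and a diabetes autoantigen) was at 143 against 251 CPM (0.569-fold) and 111 against 222 CPM (0.499-fold). Pcsk1, a proinsulin-cutting protease, was at 0.637- and 0.555-fold. These 3 were called in both libraries. Ptprn kept the call under all 13 alternatives, while Chgb and Pcsk1 each lost it under 3. For Pcsk1 these included leaving out the barcodes of the Pdyn and hypoxia state. Slc30a8 and the KATP channel subunit gene Abcc8 (0.662-fold) were called in Malat1-/- as well, and whether they differed between libraries was not tested. Atp2a3, a calcium pump of the endoplasmic reticulum, was at 0.568- and 0.464-fold, and Ucp2, a mitochondrial carrier, at 0.589- and 0.522-fold.

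Beta-cell identity genes showed less. None of 18 was called in wild type, with a median of -0.03. In Malat1-/- 3 of 17 were lower, the transcription factor Nkx2-2 (0.573-fold), the peptide gene Ucn3 (0.660-fold) and the channel gene Trpm5 (0.501-fold), with a median of -0.24 that total-UMI scaling turned to 0.01. Ins1 was at 0.781- and 0.669-fold, Ins2 at 0.925- and 0.801-fold, and Iapp, amylin, at 0.734- and 0.674-fold. Cholesterol synthesis genes had medians of -0.24 over 7 and -0.39 over 9. Insig1, which holds back the sterol-sensing SREBP pathway, was lower in Malat1-/- at 26.8 against 48.2 CPM (0.556-fold) and was at 25.8 against 37.2 CPM in wild type (0.694-fold).

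Of 10 hypoxia-induced genes 5 were higher in wild-type members, Bnip3 (1.60-fold), Ero1l (1.61-fold), Fam162a (1.79-fold), P4ha1 (1.52-fold) and Egln1 (1.57-fold), with a list median of 0.52. With the top 25% as members the median was 0.35 and of the 5 only Fam162a was called. Without the barcodes of the Pdyn and hypoxia state, which are picked by summed Pdyn, Serpina7 and Bnip3, the median was 0.27 and none of the 5 was called; since that score reads Bnip3, smaller values follow in part from the removal. In Malat1-/- none of 10 was called and the median was 0.16. Glycolysis genes had medians of 0.25 and 0.14 and no call. Mitochondrially encoded transcripts stood at medians of -0.41 and -0.24, the second of which was 0.02 under total-UMI scaling, with mt-Nd1 (0.606-fold) and mt-Nd3 (0.549-fold) called in wild type and mt-Nd3 (0.580-fold) in Malat1-/-. Nuclear-encoded respiratory chain genes had medians of 0.11 and -0.02 with no call among 77 and 78.

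None of 31 proteasome subunit genes was called in either library. Above 0 were 25 in wild type and 27 in Malat1-/-, against 51.6% and 43.9% of all measured genes, with medians of 0.12 and 0.16. In size these medians are close to or below the shift between scalings. Total-UMI scaling moved ratios upward and did not change their sign. Ribosomal protein genes stood at medians of -0.03 and -0.05 over 83. Splicing genes stood at -0.10 and -0.14, the latter 0.12 under total-UMI scaling, with Srsf3 and Srsf6 lower in Malat1-/-. Interferon and MHC class I genes had no call among 8 and medians of -0.02 and -0.20, the latter 0.06 under total-UMI scaling. NF-kB and acute-phase genes stood at -0.01 and -0.08, with 1 of 9, Socs2, lower in Malat1-/-. In the cytoskeleton list Actg1, Krt8 and Clu were higher and Cd44 lower in wild type, of 20, and S100a10, Krt8 and Clu were higher in Malat1-/-, of 19. Of the dedifferentiation list 3 genes were measured in each library, too few to describe beyond Pdyn and Spp1.

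**Figure D4:**
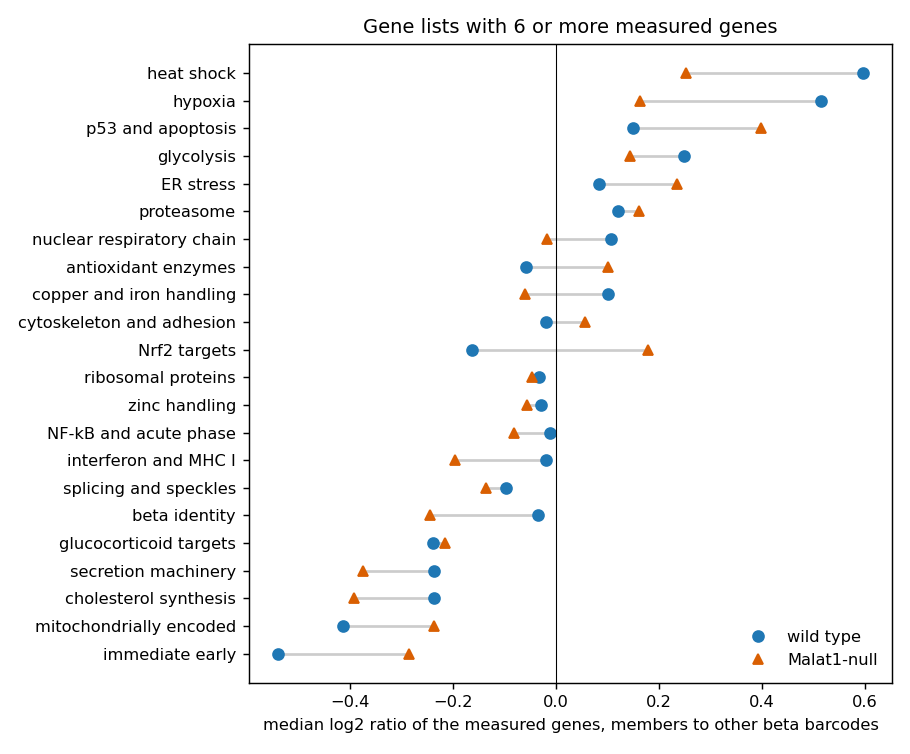
Median log2 ratio of members to other beta barcodes for each gene list with 6 or more measured genes (horizontal axis) in both libraries, with circles for wild type, triangles for Malat1-/- and a line at 0. Heat-shock and p53 genes lie to the right and immediate early, secretion and cholesterol genes to the left in both, and Nrf2 targets lie furthest to opposite sides; total-UMI scaling changes the sign of 8 of the 22 wild-type and 10 of the 22 Malat1-/- medians, among the latter those of beta identity, mitochondrially encoded, splicing, interferon and glucocorticoid genes, which lie more than 0.1 from 0.

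To see whether these values changed step by step with metallothionein level, each library's beta barcodes were split into quintiles by summed Mt1 and Mt2 CPM. The top quintile of wild type held 180 members and the next the other 103; the top quintile of Malat1-/- held all 118 among 356 barcodes. Txnip was at 191, 148, 114, 73.1 and 32.6 CPM from the lowest to the highest quintile of the wild-type library, and at 77.4, 57.5, 54.3, 47.9 and 39.7 CPM in Malat1-/-. Ddit3 was at 42.3, 59.2, 61.7, 89.8 and 239 CPM, and at 82.4, 108, 111, 130 and 203 CPM. Both genes thus changed in order across the whole range. Hspb1 behaved otherwise: it was at 12.8, 7.52, 25.9, 45.4 and 214 CPM in the wild-type library and at 7.45, 7.90, 10.3, 7.32 and 120 CPM in Malat1-/-, so that its largest step was the last in both libraries. In Malat1-/- the 4 lower quintiles stayed between 7.32 and 10.3 CPM, whereas in wild type Hspb1 already stood at 45.4 CPM before the last step.

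Ptprn was lower with each step, from 258 to 114 CPM in the wild-type library and from 249 to 155 CPM in Malat1-/-, and Pdyn from 187 to 53.7 CPM and from 65.3 to 16.99 CPM. Slc30a1 was higher with each step in wild type, at 5.31, 7.52, 9.49, 11.2 and 25.5 CPM, and in Malat1-/- went from 8.02 to 14.5 CPM. Egr1 was ordered in wild type, from 227 to 76.1 CPM, and not in Malat1-/-, at 104, 140, 170, 176 and 125 CPM. Of the 37 genes higher in both libraries 5 were ordered over all quintiles in wild type, 6 in Malat1-/- and 2 in both. Of 58 lower genes outside the mitochondrial genome 25, 20 and 11 were.

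**Figure D5:**
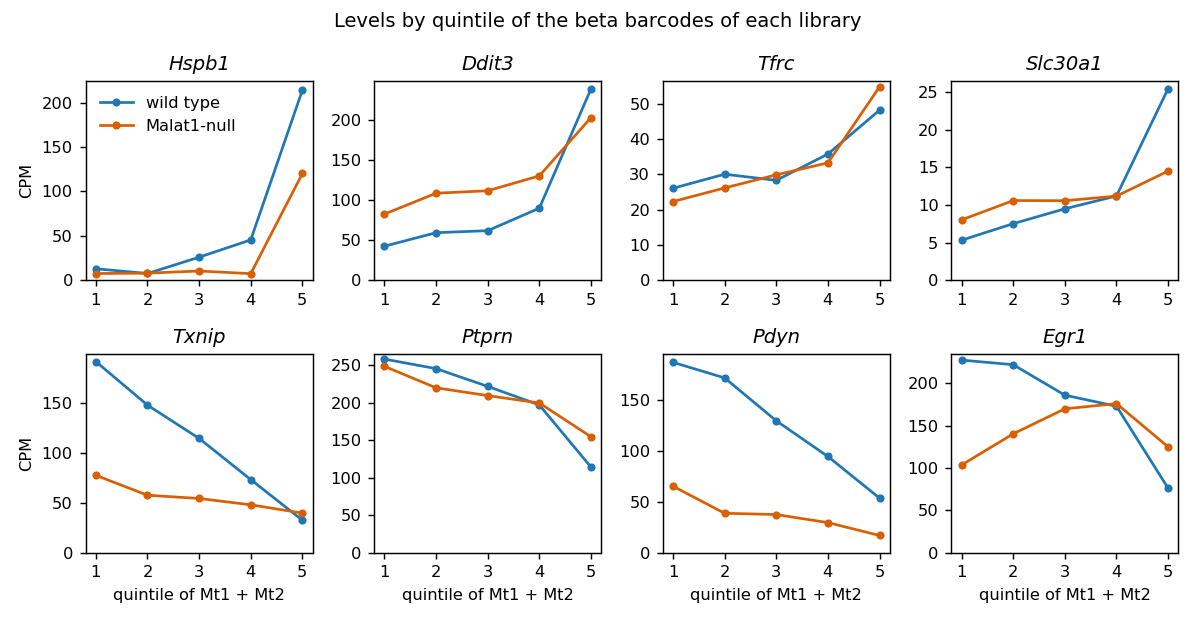
CPM of selected genes (vertical axes) over quintiles of beta barcodes ordered from low to high summed Mt1 and Mt2 (horizontal axis), 1 line per library. Ddit3 climbs and Txnip and Ptprn descend over the range in both libraries, whereas Hspb1 is highest by far in the top quintile.

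Over single barcodes, the likeness of each gene to summed Mt1 and Mt2 was measured as Spearman's rho of CPM, given as a description over 1382 genes of at least 50 CPM and 898 and 1776 barcodes that share a library and, within it, a depth range. The median gene had a rho of 0.08 in each library. The 10 most alike by the lower of both values were Chchd2, Ddit3, Cox5a, Cox5b, Cystm1, Ftl1, Snrpf, Ndufs7, Atp5md and Clic1. Chchd2, a mitochondrial protein of the respiratory chain, had a rho of 0.40 and 0.36, Ddit3 0.45 and 0.33, and Cox5a, a subunit of cytochrome c oxidase, 0.41 and 0.31. Of these, Ddit3 was called higher in members of both libraries, as given above. The sums of Chchd2, Cox5a and Atp5md differed less between members and others. Chchd2 was at 1.18- and 1.24-fold, Cox5a at 1.43- and 1.28-fold, and Atp5md at 1.10- and 0.985-fold. Atp2a3 was the most opposed, at -0.36 and -0.27, and Ins1 was at -0.33 and -0.22.

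The barcodes high for single genes overlapped in part. Taking the top 15% of each library's beta barcodes for a gene as high, 35.3% of wild-type members were high for Ddit3 against 5.69% of the others, and 52.5% against 12.3% in Malat1-/-. That top 15% holds fewer barcodes than there are members in wild type, and more in Malat1-/-. Wild-type members thus cannot all be high, and shares are not on a like scale between libraries. A larger share of members also leaves a smaller share for the others. For Hspb1 the shares were 33.6% against 6.504%, and 36.4% against 13.4%. The Malat1-/- shares are close to the shares of barcodes with at least 1 Hspb1 UMI given above. High for Hspb1 in that library, also in the overlaps below, therefore means little more than detected. For Slc30a1 they were 31.1% against 7.64%, and 29.7% against 13.9%. For Tfrc they were 24.4% against 10.7%, and 41.5% against 13.1%. High for both Hspb1 and Ddit3 were 56 of 283 wild-type members against 7 of 615 others, and 23 of 118 against 33 of 1658 in Malat1-/-. Of the Hspb1-high members 58.9% were also high for Ddit3 in wild type, above the 35.3% of all wild-type members, and 53.5% in Malat1-/-, near the 52.5% of all. High for Hsph1 were 56.8% of the Hspb1-high wild-type members against 24.7% of all wild-type members, and in Malat1-/- the shares were 34.9% and 21.2%. At the same time 144 wild-type and 36 Malat1-/- members were high for neither Hspb1 nor Ddit3.

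Other beta-cell states overlapped members unevenly. Each state is likewise the top 15% of its library, so its shares are also not on a like scale between libraries. The mature state was scored by Slc2a2, Ppp1r1a and Ucn3. It held 19.4% of wild-type members against 13.0% of the others (exact intervals 15.0% to 24.5% and 10.5% to 15.9%). In Malat1-/- it held 8.47% against 15.4% (4.14% to 15.0% and 13.7% to 17.3%). Ppp1r1a itself was at 1.29-fold in wild-type members and 0.627-fold in Malat1-/- members. The Pdyn and hypoxia state held 14.8% against 15.1%, and 15.3% against 15.0%. The Gem and Nfkbia state held 16.3% against 14.5%, and 14.4% against 15.0%. The Glul and iron state held 16.3% against 14.5%, and 18.6% against 14.7%. In none of the 6 states were 34.3% of wild-type members and 44.9% of Malat1-/- members, against 40.0% and 37.5% of the others.

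Marker RNA of most other cell types was scarce in members. Mesenchymal markers summed to 0.608 CPM in wild-type members, and all 10 were at 0 in Malat1-/- members. Erythroid and T-cell markers summed to less than 1 CPM in members of both libraries. Endothelial markers summed to 4.70 and 4.59 CPM, with Cdh5 and Cldn5 at 0 in both. Macrophage markers summed to 30.7 and 37.2 CPM, against 31.0 and 36.3 CPM in the others, with C1qc and Adgre1 at 0 in both. Alpha-cell markers summed to 444 against 454 CPM in the wild-type library and 1166 against 612 CPM in Malat1-/-, where the medians were 337 against 279 CPM and Loxl4 was at 0 in members. Ductal markers, a list that includes Spp1, summed to 860 against 1362 CPM and 662 against 558 CPM, with Cftr at 0 in members of both. Pyy is on both the alpha-cell and the PP-cell list, and a single barcode held most of the Malat1-/- members' Pyy UMIs, as given above. PP-cell markers summed to 167 against 239 CPM and 775 against 420 CPM, with medians of 96.4 against 107 CPM and 114 against 115 CPM. Their part in the differences above was not tested.

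Members of the 2 libraries also differed from each other. Of 4155 measured genes 93 were higher in Malat1-/- members (2.24%) and 135 lower (3.25%), while in the other beta barcodes 68 of 4110 were higher (1.65%) and 72 lower (1.75%). The rule pools both libraries, so the wild-type members reach deeper into that library's range. Hspa1a was at 169 CPM in wild-type members and 2.41 CPM in Malat1-/- members, and Hspa1b at 138 and 2.57 CPM. In the other beta barcodes Hspa1a was at 24.6 and 8.47 CPM. Dnajb1, their co-chaperone, was at 52.3 and 10.6 CPM in members and 17.7 and 14.5 CPM in others.

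Pdyn was 0.149-fold and Spp1 0.289-fold in Malat1-/- against wild-type members, and both were also lower among the other beta barcodes, at 0.248- and 0.109-fold. Their log2 ratios between members were -2.74 and -1.79. With the top 15% within each library they were -1.07 and -0.97, and over all alternatives they ranged from -3.85 to -1.07 and from -2.53 to -0.94. Pde1c, a cyclic nucleotide phosphodiesterase, stood at 27.6 CPM in wild-type members against 6.73 CPM in Malat1-/- members, and at 29.0 and 9.74 CPM in the others. Reg2 and Reg3b had no UMI in Malat1-/- members and were at least 70.0- and 43.3-fold higher in wild-type members against a floor of 3 UMIs over the group, but 1 wild-type barcode held 89.1% and 93.0% of their UMIs.

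On the higher side, Enpp2 was 3.31-fold, Wdfy1 3.30-fold and the tetraspanin gene Cd81 3.34-fold higher in Malat1-/- members, and the other beta barcodes had ratios of 2.48, 3.32 and 2.15. Gcg, which the rule limits, was 4.00-fold higher, a log2 ratio of 2.00, against 4.56-fold in the others. With the top 10% its log2 ratio was 2.63, and without acinar and PP barcodes it was 1.23 and no longer called. Angptl7 was at 48.1 against 2.12 CPM, with 50% of the UMIs in 1 barcode. Nupr1 was 2.33-fold higher in Malat1-/- members and stood at 0.874-fold in the others. Of the Nrf2 targets 6 of 20 were higher in Malat1-/- members and none lower, among them Srxn1 (64.1 against 34.1 CPM), Sqstm1 (517 against 281 CPM) and Gclc of glutathione synthesis (29.7 against 18.2 CPM), with 19 above 0 and a median of 0.45. The same targets had no call and a median of 0.07 in the other beta barcodes. Hypoxia genes were lower in Malat1-/- members, 6 of 10 with a median of -0.74, and glycolysis genes, 8 of 11 with -0.73. In the other beta barcodes they were also lower, 4 of 10 with -0.36 and 6 of 11 with -0.65. These comparisons rest on 1 library of each genotype and share their barcodes with the comparisons within libraries.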

How the data were processed

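Islet suspensions of wild-type and Malat1-/- mice were profiled as droplet libraries. The authors deposited unfiltered UMI counts per gene and barcode; the submitters' processing notes name Cell Ranger 2.1.0 and mm10, and, per the file headers, the matrices carry the mark of Cell Ranger 4, so the version is not settled. Of the 32285 gene identifiers, 32235 were found in GENCODE M21, which gave coordinates.

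Barcodes of at least 12000 UMIs were kept, and no doublet caller or background correction was run. Counts were summed over members and over other beta barcodes of each library and scaled with edgeR 4.0.16 (R 4.3.3) by trimmed means; ratios and exact 95% intervals were computed in Python 3.11.15 with numpy 2.4.6, scipy 1.17.1 and pandas 2.3.3, and figures with matplotlib 3.10.9. Log2 ratios had 0.5 UMI added. Tested on simulated counts, all genes set 2- or 3-fold apart were called, none set 1.25-fold apart, and 0 of 3768 and 0 of 3889 unchanged genes. The simulated sums had counting error only, as the intervals assume, and no spread between barcodes. They check the computation and cannot give the rate of false calls in the real data, where single barcodes held most UMIs of some called genes.

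Named genes were the 15 highest and 15 lowest in both libraries by the smaller log2 ratio, up to 4 of each of 24 gene lists, the 8 highest and 8 lowest between genotypes and the 10 most correlated with Mt1 plus Mt2, with Mt1, Mt2, Malat1, mitochondrially encoded and sex-linked genes left out of the ranks; others were named after their values were seen. The members and lists were chosen with earlier results of these data known. The vehicle libraries were not used here.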

Additional observations from a re-analysis of the deposited data

Results flagged for a closer look

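Pyy had a log2 ratio of members to other beta barcodes of -1.10 in wild type and 1.08 in Malat1-/-, opposite in direction; the difference was not tested, and 1 barcode held 97.5% of the Malat1-/- members' Pyy UMIs.

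The median log2 ratio of the Nrf2 targets was -0.16 in wild type and 0.18 in Malat1-/-, again opposite in direction, and this difference was not tested. Of the targets, 15 of 20 were below 0 in wild type and 17 of 20 above 0 in Malat1-/-.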

How the results depend on the processing

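No paired analysis was possible because each genotype had 1 library. Leaving out a library was likewise not possible. The 3 alternatives that set aside heat-shock, Pdyn-state or acinar and PP barcodes were chosen after seeing the data.

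Shares of members kept their value within counting error under the alternatives given with them above, all of which kept the pooled top 15%. Other cuts change the shares by their definition. Members numbered 207 wild-type and 60 Malat1-/- barcodes with the top 10%, and 420 and 248 with the top 25%. With the top 15% within each library they numbered 135 and 266. Counts of called genes moved by more than 1.5 times as follows, given as higher and lower. Under total-UMI scaling they were 179 and 51 in wild type, 366 and 57 in Malat1-/- and 97 and 24 in both. Scaling without hormone, metallothionein, Malat1 and mitochondrial UMIs gave 213 and 191, 236 and 316, and 84 and 98, and 188 and 235 between genotypes. The top 25% gave 42 and 36, 36 and 66, and 16 and 15. The top 15% within each library gave 212 and 323, 40 and 56, and 18 and 37, with 190 higher between genotypes. The top 10% gave 178 lower in wild type and 93 lower in both. Thinning to 12000 UMIs gave 156 higher in wild type, and others matched on UMI total 151 higher in Malat1-/-. A 50 CPM minimum gave 35 and 46, 39 and 83, 13 and 32, and 45 and 53 between genotypes, and no CPM minimum 350 and 396, 255 and 579, 107 and 159, and 203 and 374. A 2-fold limit gave 27 and 13, 29 and 33, 17 and 6, and 23 and 39. The last 3 changes follow from testing other genes or a wider fold; the cause of the rest was not tested.

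Of 346 gene values 284 kept their sign under every alternative run for them, as did 25 of 48 list medians. The following log2 ratios of called genes changed sign, most of them of acinar genes; the share of their UMIs in single barcodes is given above. With the top 10% they were 2210010C04Rik -0.54, Cela1 -0.60, Clps -0.46, Ctrb1 -0.27, Pnlip -0.47, Prss2 -0.81, Sycn -0.65, Try4 -0.67 and Try5 -1.21 in wild type. They were 2210010C04Rik -2.86, Cela1 -3.28, Cela3b -4.26, Clps -3.66, Cpa1 -2.77, Ctrb1 -3.02, Pnlip -2.19, Prss2 -1.54, Sycn -3.61, Try4 -2.40 and Try5 -2.21 in Malat1-/-. They were Clps -3.55 and Rnase1 -0.0185 between genotypes. The top 15% within each library gave 2210010C04Rik -0.29, Cela1 -0.38, Clps -0.14, Ctrb1 -0.12, Pnlip -0.27, Prss2 -0.86, Sycn -0.46, Try4 -0.80 and Try5 -1.09 in wild type. Without barcodes above the 95th percentile of UMIs they were 2210010C04Rik -0.78, Cela1 -1.40, Cela3b -0.90, Clps -0.97, Cpa1 -0.21, Ctrb1 -0.63, Pnlip -0.29, Prss2 -0.53, Sycn -0.57, Try4 -0.79 and Try5 -0.11 in Malat1-/-. They were Clps -4.92 and Rnase1 -0.68 between genotypes. Without acinar and PP barcodes they were 2210010C04Rik -0.68, Cela1 -1.13, Cela3b -0.72, Clps -0.65, Cpa1 -0.0127, Ctrb1 -0.44, Pnlip -0.0166, Prss2 -0.40, Pyy -1.44, Sycn -0.37 and Try4 -0.62 in Malat1-/-. They were Clps -3.27 between genotypes. Without heat-shock barcodes, chosen by Dnajb1 among others, they were Dnaja1 -0.17 and Dnajb1 -0.42 in wild type. Of the list medians at least 0.1 from 0, copper and iron handling was -0.0575 and the nuclear respiratory chain -0.0581 in wild type with the top 15% within each library. Total-UMI scaling gave glucocorticoid targets 0.0379, beta identity 0.0102, interferon genes 0.0577, mitochondrially encoded genes 0.0167 and splicing genes 0.12 in Malat1-/-. Without the Pdyn state, glycolysis was -0.0463 in Malat1-/-. The dedifferentiation list, of 3 genes, was 0.28 with the top 10%, 0.47 with matched others and 0.24 without the Pdyn state. The causes were not tested. The 20 CPM minimum, not the UMI count, left out Mt3 and, in Malat1-/-, Slc30a1; Cyp1a1 had 2 and 0 UMIs in members.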
